A study of Homo sapiens with 15 samples.

Results

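The ubiquitin ligase, conjugation and deubiquitinase families are described here through the transcripts of 75 genes, out of the 4872 genes present in 4 deposited tables of gene expression in WI-38, a human fibroblast line from fetal lung that stops dividing after a finite number of passages. The genes were chosen by symbol alone: those starting with RNF, TRIM and a digit, FBXL, FBXO, FBXW, KLHL, USP and a digit, UBE2, MARCHF, or CUL and a digit, with UBE2C and TRIM22 left out. The 75 genes fill 92 table rows, because 14 of them occur in at least 2 tables and 3 of them in 3. A symbol is not always an enzyme: FBXO30-DT, RNF217-AS1 and TRIM8-DT are named as divergent or antisense transcripts, TRIM16L is not protein-coding in the RefSeq table used here, and RNF103-CHMP3 is a read-through of neighbouring genes. No FBXW gene was present in any of the tables.

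RNA was sequenced from 15 libraries in 5 groups of 3, all WI-38 cells grown in MEM with FBS and all exposed to the lipofection reagent lipo3000. The PD30 control (population doubling 30) received DMSO, and the PD45 control (population doubling 45, the senescent cells of the study) received DMSO and NC, read as a negative-control siRNA. The PD45 siSRC2 and PD45 siSRC4 groups received DMSO and an siRNA against SRC, a tyrosine kinase gene, and carry the same treatment label. The PD45 GW8510 group received NC and GW8510, a kinase inhibitor known for its action on cyclin-dependent kinases, with no DMSO in its label. Passage and NC can therefore not be told apart in the comparison of PD30 with PD45, nor can GW8510 and the absence of DMSO in the comparison of GW8510. The labels give no dose or duration, and nothing in them states that the replicates were separate cultures, so every p-value reflects the spread of these libraries alone, which may be technical.

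Each table compares 1 group with the same PD45 control libraries and holds only genes that the authors called, with an adjusted p below 0.05 and a change of 1.5-fold or more, up or down. Absence from a table shows neither that a gene was unchanged nor that it was silent. Values are the deposited normalized signal, with its unit (TPM or FPKM) not given in the headers, so levels are compared within a gene and not between genes. SRC itself fell from 19.8 ± 0.766 in the PD45 control to 11.3 ± 0.580 with siSRC2 and to 10.8 ± 1.16 with siSRC4 (mean ± SD, n = 3 each). Of the 11 fibroblast markers looked up, 4 were listed for PD30: COL3A1, VIM and PDGFRA were higher (VIM 5407 ± 219 at PD30 and 3225 ± 104 in the PD45 control) and S100A4 was 4.75-fold lower. FAP was 1.99-fold lower with GW8510, and COL3A1 was higher with GW8510 (1.76-fold) and siSRC2 (1.96-fold). Of the 3 endothelial markers none was listed, which says nothing of their level. The epithelial keratins KRT8, KRT18 and KRT19 were all listed as lower at PD30, KRT19 by 4.29-fold, and KRT19 was also 1.83-fold lower with siSRC2 and 1.74-fold higher with GW8510. The smooth muscle markers ACTA2 and CNN1 were 1.77-fold and 1.71-fold lower at PD30, and the leukocyte marker CD68 was 1.71-fold lower with GW8510. The part of these markers in the results below was not tested. In these bulk libraries, fewer expressing cells and less RNA per cell cannot be told apart. Among 1170 siSRC4-listed genes that averaged 1 or more in signal, siSRC4 replicate 3 had the lowest value of its group in 57.5% and replicate 1 the highest in 54.2%. PD45 control replicate 3 was the lowest of its group in 46.5% to 56.1% of the genes across the 4 tables.

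Ubiquitin is passed from an activating enzyme (E1) to a conjugating enzyme (E2, the UBE2 genes) and then to a substrate chosen by a ligase (E3). RNF, MARCHF and TRIM genes mostly encode RING-type ligases, which hold the charged E2 and the substrate together. Cullins are scaffolds of multi-part ligases in which F-box proteins (FBXL, FBXO, FBXW) and many KLHL proteins bring in the substrate. USP enzymes remove ubiquitin again. In dividing cells these enzymes set the timing of mitosis through the anaphase-promoting complex, and they serve DNA repair, membrane protein turnover, innate immune signalling and, in muscle, protein breakdown.

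Across the 394 protein-coding RefSeq symbols that the rule takes, 9.39% were listed at PD30, 7.87% with GW8510, 0.761% with siSRC2 and 4.06% with siSRC4. The tables hold 15.3%, 11.8%, 2.64% and 8.77% of the genes the authors tested in the same comparisons, a number that follows from the first row's ratio of adjusted to raw p. The 2 series of shares have different denominators, since the 394 symbols include genes that WI-38 cells may not express, and no direction is read from them. The mean PD45 control signal of the 75 members ranged from 0.00667 to 71.6 with a median of 4.65, and was under 1 in 10 of them.

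Promoter windows are shown for UBE2S, UBE2T, FBXO5 and USP1, 4 of the members higher at PD30 with known roles in mitosis or in repair of crosslinked DNA; they were picked for those roles after their values had been seen. Each window holds the 250 bases before a RefSeq start in GRCh38.p14, read 5′ to 3′ on the strand of the gene. Capitals mark the CCAAT box and the TTTGAA core of the CHR element on either strand, both known in promoters of cell cycle genes.
UBE2S, chr19:55407789-55408038, minus strand: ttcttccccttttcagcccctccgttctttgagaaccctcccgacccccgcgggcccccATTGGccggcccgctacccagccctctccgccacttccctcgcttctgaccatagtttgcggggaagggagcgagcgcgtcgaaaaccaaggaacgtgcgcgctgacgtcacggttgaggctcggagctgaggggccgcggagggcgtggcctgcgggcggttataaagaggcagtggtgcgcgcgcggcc
UBE2T, chr1:202341937-202342186, minus strand: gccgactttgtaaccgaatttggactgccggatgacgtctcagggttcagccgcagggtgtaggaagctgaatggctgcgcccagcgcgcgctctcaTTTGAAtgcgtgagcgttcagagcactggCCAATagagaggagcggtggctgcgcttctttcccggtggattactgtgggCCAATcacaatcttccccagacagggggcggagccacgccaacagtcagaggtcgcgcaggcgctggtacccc
FBXO5, chr6:152983042-152983291, minus strand: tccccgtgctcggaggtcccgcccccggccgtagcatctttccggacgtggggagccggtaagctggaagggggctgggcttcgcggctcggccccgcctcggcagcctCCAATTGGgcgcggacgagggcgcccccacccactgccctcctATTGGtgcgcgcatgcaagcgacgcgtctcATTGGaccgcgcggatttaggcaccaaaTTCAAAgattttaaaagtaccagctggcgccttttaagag
USP1, chr1:62436145-62436394, plus strand: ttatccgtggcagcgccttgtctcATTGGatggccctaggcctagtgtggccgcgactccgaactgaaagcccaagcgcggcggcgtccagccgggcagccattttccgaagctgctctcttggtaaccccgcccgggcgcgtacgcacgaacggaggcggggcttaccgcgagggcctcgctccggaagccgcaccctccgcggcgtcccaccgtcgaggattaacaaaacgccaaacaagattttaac
USP1, chr1:62436799-62437048, plus strand: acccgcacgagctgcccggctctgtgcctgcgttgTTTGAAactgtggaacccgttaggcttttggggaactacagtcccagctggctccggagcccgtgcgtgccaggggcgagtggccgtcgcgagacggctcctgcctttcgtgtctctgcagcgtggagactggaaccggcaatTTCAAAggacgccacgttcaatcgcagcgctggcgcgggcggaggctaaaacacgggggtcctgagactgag
The FBXO5 window holds 4 CCAAT matches, 2 of which overlap on opposite strands, and 1 TTTGAA match, whereas the window of a second FBXO5 start held neither. UBE2T has 2 CCAAT matches and 1 TTTGAA match, and UBE2S has 1 CCAAT match and no TTTGAA match. Of the 2 USP1 starts, the upstream one has the CCAAT match and the downstream one 2 TTTGAA matches. These letters are common: 37.0% of 27305 symbols with a RefSeq window hold the CCAAT match and 16.1% hold TTTGAA in at least 1 window. Among the 18 of 24 PD30-higher members with a window, 5 held CCAAT and 4 held TTTGAA, and among the 11 of 15 PD30-lower members with one, 3 and 1 did. A match is a description of the sequence only.

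The first comparison asks how members differed between PD30 and PD45 control cells. Of 39 listed members, 24 were higher and 15 lower at PD30, so that 61.5% were higher beside 53.8% of all listed genes. Both listed E2 enzymes, 10 of 12 TRIM members and 4 of 5 USP members were higher at PD30, while all 3 MARCHF members and 6 of 9 RNF members were lower. The largest differences among members with a signal of at least 5 were the 7.87-fold lower MARCHF1, the 3.81-fold higher KLHL13, the 3.05-fold lower FBXO2 and UBE2T, which was higher by a log2 ratio of 1.59. The median log2 ratio was 0.85 for the higher members and -1.09 for the lower ones, beside 1.12 and -0.95 for all listed genes. The PD30 and PD45 libraries did not overlap in 36 of the 39 members, beside 93.6% of all listed genes. In limma's re-test of the listed genes on log2(signal + 1), all 31 members with a mean signal of at least 1 passed an adjusted p of 0.05, beside 97.3% of all listed genes. The genes had already been selected by the authors on this contrast, so these shares describe the tables and add no independent evidence.

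Among the E2 enzymes, UBE2S, which extends ubiquitin chains for the anaphase-promoting complex, had signals of 125.65, 161.86 and 136.29 at PD30 and of 78.66, 68.16 and 68.11 in the PD45 control. Every PD30 library lay above every control library, and the ratio of means was 1.97 (limma log2 difference 0.96 ± 0.10 SE, adjusted p = 2.24e-05). UBE2T, the E2 of the Fanconi anemia pathway of crosslink repair, had signals of 23.80, 25.67 and 25.93 at PD30 and of 7.43, 8.39 and 9.28 in the control. Its groups were well apart, with a log2 ratio of 1.59 (limma log2 difference 1.48 ± 0.10 SE, adjusted p = 1.52e-06).

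Among the RNF members, RNF167, an endosomal membrane ligase, was the one higher at PD30 with a signal above 5: 77.79, 66.59 and 71.68 at PD30 against 47.19, 47.54 and 48.05 (1.51-fold, adjusted p = 8.41e-05). RNF182 was 1.79-fold higher at PD30, at 4.50 ± 0.355. RNF19A, a ligase of the RING-between-RING type, had signals of 8.22, 8.34 and 8.38 at PD30 and of 13.52, 15.51 and 14.37 in the control, 1.74-fold lower (adjusted p = 8.19e-05). The other lower RNF members had control signals between 1 and 5. RNF227 was 3.10-fold lower at PD30, at 0.860 ± 0.0400. RNF144B, a p53-induced RING-between-RING ligase, was 2.91-fold lower at PD30, at 0.707 ± 0.221 against 2.06 ± 0.255 in the control. RNF128, RNF152 and RNF217-AS1 are lower as well and are described with the members of several tables.

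All 3 listed MARCHF members were lower at PD30. MARCHF1, known for removing MHC class II and CD86 from the surface of antigen-presenting cells, had signals of 1.76, 0.65 and 0.94 at PD30 and of 10.49, 8.80 and 7.09 in the PD45 control. No library of one group reached the other, and the difference was 7.87-fold (log2 difference -2.23 ± 0.21 SE, adjusted p = 8.55e-06). The authors' own fold change for MARCHF1 is smaller, at 5.57-fold lower. MARCHF4 had signals of 15.30, 14.25 and 16.68 against 25.40, 22.93 and 22.74, 1.54-fold lower without overlap (adjusted p = 0.000257). MARCHF10 was at 0.480 ± 0.240 at PD30 and 1.18 ± 0.300 in the control, too low for the re-test.

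TRIM members made up the most numerous class for PD30, with 10 of 12 higher. TRIM34 had signals of 6.46, 6.51 and 7.14 at PD30 and of 3.29, 4.38 and 3.90 in the control (1.74-fold, adjusted p = 0.000747). TRIM6 was 2.89-fold higher at PD30, at 3.46 ± 0.441. It lies in the same gene cluster as TRIM34 and has read-through transcripts with it. How reads were divided between the pair was not stated. TRIM47 had signals of 9.96, 8.63 and 10.26 against 5.77, 5.48 and 5.81 (1.69-fold, adjusted p = 0.000342). TRIM16L, a near copy of part of TRIM16 whose reads may be shared with it, had signals of 6.35, 7.83 and 8.41 against 4.24, 4.89 and 5.13 (1.58-fold, adjusted p = 0.00271). These TRIM members were apart in every library. TRIM65 was 1.58-fold higher at PD30 (12.8 ± 1.42), TRIM61 3.46-fold higher (3.16 ± 0.616) and TRIM59 2.38-fold higher (4.56 ± 0.644). TRIM58 was nearly absent in the control, with 0.01, 0.06 and 0.04, and reached 0.76, 0.88 and 0.77 at PD30. In the other direction, TRIM3 had signals of 11.79, 11.30 and 12.22 at PD30 and of 22.71, 20.01 and 17.65 in the control (1.71-fold lower, adjusted p = 0.000166). TRIM29 was at 0.09, 0 and 0.05 at PD30 and at 1.15, 0.78 and 0.90 in the control, so that it was close to nothing at PD30 and low in the control. Its log2 ratio of -4.34 was -5.24 without PD30 replicate 1 and -3.75 without PD30 replicate 2.

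Among the adaptors with known roles in mitosis, FBXO5 and KLHL13 were higher at PD30 and KLHL21 was lower. FBXO5 (EMI1), an inhibitor of the anaphase-promoting complex, had signals of 5.17, 5.36 and 6.44 at PD30 and of 2.88, 2.61 and 1.76 in the control (2.34-fold, adjusted p = 0.000285). FBXO43 (EMI2), its meiotic relative, was at the edge of detection, with 0.23, 0.11 and 0.13 at PD30 and 0, 0.02 and 0 in the control. FBXO4 had signals of 4.54, 6.64 and 5.35 against 2.64, 3.79 and 3.48 (1.67-fold, adjusted p = 0.00572). KLHL13, an adaptor of the cullin ligase that acts on Aurora B, had signals of 5.72, 6.01 and 5.51 at PD30 and of 1.22, 1.30 and 2.01 in the control. Its groups stood far apart, at 3.81-fold (log2 difference 1.44 ± 0.15 SE, adjusted p = 1.55e-05). KLHL23 was at 0.63, 1.39 and 0.88 against 0.15, 0.34 and 0.64, with overlapping libraries and too low for the re-test. Its log2 ratio of 1.36 was 1.98 without control replicate 3 and 0.98 without control replicate 1. KLHL21, which also acts on Aurora B, moved the other way, with 24.97, 25.65 and 25.29 at PD30 against 40.96, 37.80 and 33.58 (1.48-fold lower, adjusted p = 0.000312). FBXO2, which recognises N-glycans on misfolded glycoproteins, had signals of 2.35, 2.41 and 3.04 against 8.38, 6.81 and 8.57 (3.05-fold lower, adjusted p = 1.91e-05). FBXL16 had overlapping libraries, with 2.13, 4.55 and 4.82 against 7.35, 8.07 and 4.03. Its adjusted p of 0.0485 for a 1.69-fold lower mean rose to 0.195 at most when 1 library was left out (PD30 replicate 1, PD45 control replicate 1 or PD45 control replicate 2), and the authors' deposited table gives it a log2 fold change of -1.42.

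Among the USP deubiquitinases, USP40 had signals of 10.57, 12.07 and 12.91 at PD30 and of 7.65, 6.76 and 6.58 in the control (1.69-fold, adjusted p = 0.000347). USP18, which removes the ubiquitin-like protein ISG15, had signals of 5.30, 6.55 and 5.86 against 3.45, 3.41 and 3.99 (1.63-fold, adjusted p = 0.00167). USP37, a deubiquitinase of cyclin A, was at 0.707 ± 0.0252 against 0.433 ± 0.0862, too low for the re-test. USP1, which reverses the ubiquitination of FANCD2 and PCNA, was higher too, and USP53 was the one USP member lower at PD30; both are given with the members of several tables.

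**Figure D1:**
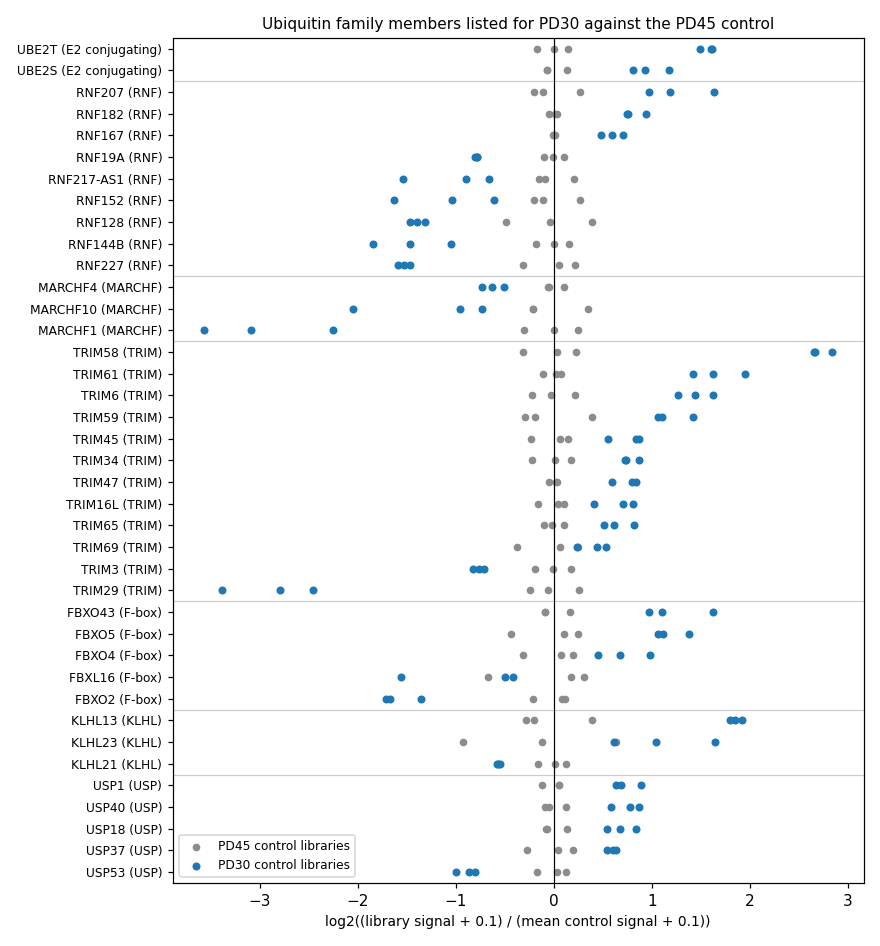
Each row is a member listed for PD30, and points are log2((library signal + 0.1) / (mean PD45 control signal + 0.1)) for the 3 PD30 libraries (coloured) and the 3 PD45 control libraries (grey). The points of the 24 higher members lie right of the grey ones and those of the 15 lower members left of them, except that groups overlap in FBXL16, KLHL23 and TRIM69.

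The second comparison asks how members differed between PD45 cells with GW8510 and PD45 control cells, which had DMSO instead. Of 33 listed members, 25 were lower with GW8510 and 8 higher, so that 24.2% were higher beside 38.8% of all listed genes. Of the members passing limma's re-test, 6 were higher and 24 lower on the deposited signals. Once each library was centred on the median of the listed genes, 8 higher and 1 lower (TRIM2) passed. This took the log2 difference of UBE2S from 0.83 to 1.38. All listed genes had been called as changed and 61.2% of them were lower, so this centring raises the differences by construction. It cannot show which scaling is right, and nothing about the members is read from it. All 6 USP members, all 5 RNF members, all 3 KLHL members and 7 of 8 F-box members were lower, whereas UBE2S, CUL7 and 5 of 9 TRIM members were higher. Differences were mostly under 2-fold, with a median fold of 1.75 for lower and 1.43 for higher members. The median log2 ratio was -0.81 for the lower members and 0.51 for the higher ones, beside -0.89 and 0.68 for all listed genes. Libraries did not overlap in 32 of 33 members, beside 90.6% of all listed genes, RNF112 being the exception. In the re-test 30 of 32 members passed, beside 95.4% of all listed genes, and TRIM46 (adjusted p = 0.0517) and TRIM69 (adjusted p = 0.0880) did not. With 1 of the 6 libraries left out, 27 of the 30 passed every time, and RNF112, TRIM16 and TRIM52 did not.

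UBE2S was the listed E2, with signals of 132.00, 145.86 and 109.25 with GW8510 against the control's 78.66, 68.16 and 68.11, 1.80-fold higher without overlap (adjusted p = 0.000190). CUL7, a scaffold of the cullin family and the one cullin in any table, had signals of 26.56, 27.04 and 28.40 against 18.57, 22.49 and 18.99 (1.37-fold higher, adjusted p = 0.00325). In this comparison the log2 fold changes of the authors' deposited table lay above the log2 ratios of signals by a median of 0.12 over all listed genes, though not for every gene: UBE2S is 1.54-fold higher in that table.

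Among the TRIM members, TRIM21, a cytosolic antibody receptor with ligase activity, had signals of 14.98, 14.49 and 15.98 with GW8510 and of 8.76, 10.51 and 9.57 in the control (1.58-fold, adjusted p = 0.000791). TRIM8-DT, a divergent transcript at the TRIM8 gene, had signals of 11.52, 23.36 and 21.66 against 10.13, 11.17 and 9.96 (1.81-fold, adjusted p = 0.00781). The first GW8510 library of TRIM8-DT lay close to the control range and the other 2 well above it. TRIM16 had signals of 32.32, 32.00 and 43.56 against 29.12, 26.72 and 28.03. Its 1.29-fold difference (adjusted p = 0.0252) was no longer past the threshold without GW8510 replicate 3 or without PD45 control replicate 2 or 3, where the adjusted p reached 0.0915. TRIM46 was at 4.86 ± 0.737 against 3.67 ± 0.404 and did not pass the re-test. TRIM2, lower with GW8510, had signals of 3.81, 3.02 and 3.05 against 7.52, 6.83 and 5.11 (1.97-fold lower, adjusted p = 0.00110). TRIM23 fell 1.51-fold to 3.01 ± 0.333. TRIM52 fell 1.43-fold to 1.63 ± 0.111 (adjusted p = 0.0252), a call that was lost without PD45 control replicate 1 or GW8510 replicate 1 or 3, with an adjusted p of 0.0795 at most. Rescaling libraries to their median over the listed genes raises the differences of this comparison by construction. Under it TRIM52 changed sign to a log2 difference of 0.03 (adjusted p = 0.855).

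F-box members were lower with GW8510 in 7 of 8 cases. None of the 7 passed under median-ratio scaling, which raises the differences of this comparison by construction. FBXO38 had signals of 12.40, 12.46 and 11.66 with GW8510 and of 25.43, 19.64 and 19.32 in the control (1.76-fold lower, adjusted p = 0.000426). FBXO8 had signals of 4.16, 4.16 and 4.20 against 7.22, 6.72 and 7.65 (1.72-fold lower, adjusted p = 0.000715). The groups of both were apart. FBXO32 (atrogin-1), known from muscle wasting, fell from 4.65 ± 1.99 to 2.15 ± 0.249, and its control libraries ranged from 2.70 to 6.67. The ratio of 2.17-fold lower compares with 3.16-fold lower in the authors' deposited table. FBXO3 fell 1.66-fold to 9.62 ± 0.746, FBXO36 1.81-fold to 1.03 ± 0.163 and FBXO30-DT, a divergent transcript at the FBXO30 gene, 2.06-fold to 1.07 ± 0.320. FBXL18 was the one F-box member higher, with 16.86, 16.33 and 17.01 against 12.59, 11.51 and 9.48 (1.49-fold, adjusted p = 0.00194).

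The KLHL members had low signals. Neither of the pair that was re-tested passed under median-ratio scaling, which raises the differences of this comparison by construction. KLHL24 had 1.59, 2.71 and 0.78 with GW8510 and 4.48, 4.30 and 4.50 in the control (2.61-fold lower, adjusted p = 0.00139). KLHL8 had 2.95, 2.30 and 2.49 against 3.59, 4.37 and 4.81 (1.65-fold lower, adjusted p = 0.00460). The GW8510 libraries of KLHL24 differed by more among themselves than its control libraries did. KLHL38 was at 0.150 ± 0.0346 against 0.740 ± 0.314, too low for the re-test.

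None of the 5 RNF members passed under median-ratio scaling, which raises the differences of this comparison by construction. Among them, RNF13, an endosomal and lysosomal membrane ligase, had signals of 8.46, 8.53 and 8.51 with GW8510 and of 13.14, 15.79 and 13.64 in the control (1.67-fold lower, adjusted p = 0.000503). The read-through RNF103-CHMP3 had 3.83, 4.60 and 3.92 against 6.82, 5.66 and 6.65 (1.55-fold lower, adjusted p = 0.00389), and reads of its component genes may be shared with it. RNF112 had overlapping libraries, at 1.40 ± 0.556 against 2.34 ± 0.637, and its adjusted p of 0.0351 reached 0.136 when 1 library was left out; the call was lost without GW8510 replicate 2 or 3 or PD45 control replicate 1 or 2.

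All 6 USP members in the GW8510 table were lower on the deposited signals, and none of the 6 passed under median-ratio scaling. That scaling raises the differences of this comparison by construction, so nothing is read from the loss. USP16, which removes ubiquitin from histone H2A, had signals of 11.67, 8.31 and 10.06 with GW8510 and of 18.01, 17.84 and 17.14 in the control (1.76-fold lower, adjusted p = 0.000462). Scaling took its log2 difference from -0.77 to -0.26 (adjusted p = 0.0783), the smallest adjusted p of the 6. USP12 had signals of 6.87, 5.77 and 8.61 against 12.75, 11.75 and 10.89 (1.67-fold lower, adjusted p = 0.00167). USP12 shares its activating partner UAF1 with USP1 and USP46. USP33 fell 1.64-fold to 12.1 ± 0.431 and USP27X 1.72-fold to 0.930 ± 0.170. The folds of the 6 members lay within 1.64 and 1.81, a narrower span than in any other class with several lower members in this table.

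**Figure D2:**
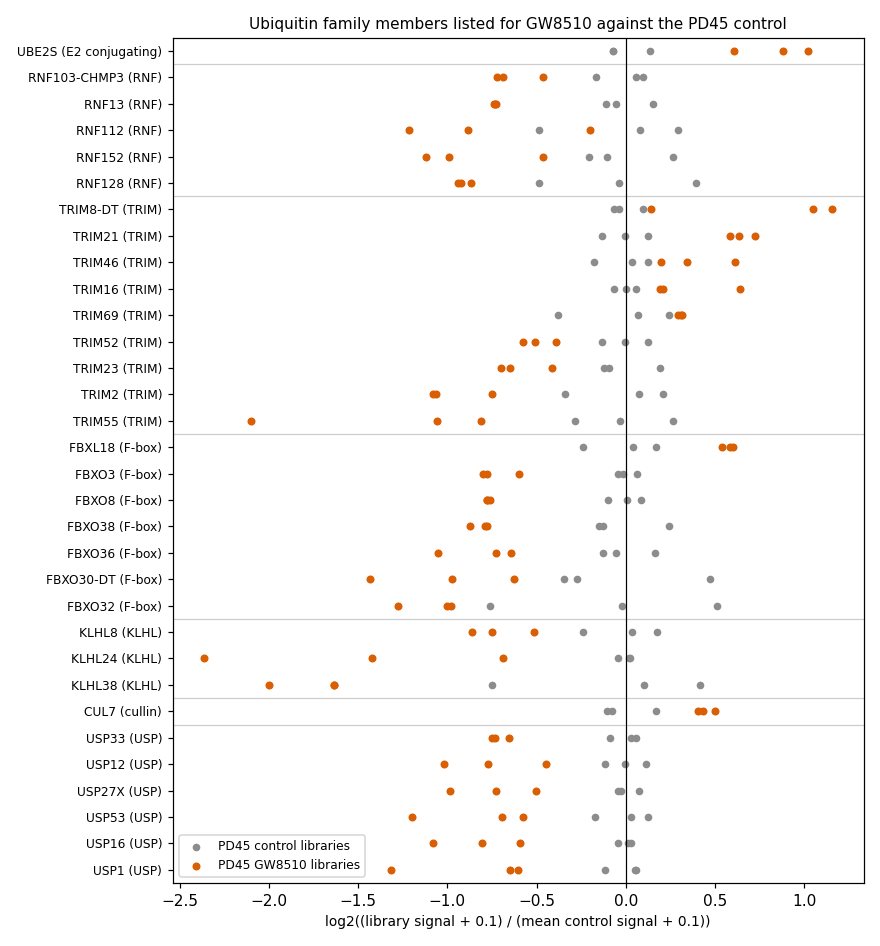
Rows are members listed for GW8510, and the axis is log2((library signal + 0.1) / (mean PD45 control signal + 0.1)), with GW8510 libraries coloured and control libraries grey. The lower members form the larger block, and RNF112 is the member whose groups overlap.

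The third comparison asks how members differed with siSRC2. All 3 listed members were lower, beside 52.3% of all listed genes being higher, and no E2, RNF, F-box, cullin or USP member was listed. Libraries did not overlap in 2 of 3, beside 90.6% of all listed genes. MARCHF4 had signals of 11.74, 13.00 and 12.90 with siSRC2 and of 25.40, 22.93 and 22.74 in the control (1.89-fold lower, adjusted p = 0.000111). TRIM37, a ligase that limits centrosome formation, had 7.16, 7.42 and 7.75 against 11.91, 10.14 and 10.59 (1.46-fold lower, adjusted p = 0.00257). Both had groups apart, and these were the 2 of 2 members that entered and passed the re-test, beside 95.5% of all listed genes. KLHL3, an adaptor for the WNK kinases of salt balance, had 0.45, 0.75 and 0.69 against 1.29, 0.89 and 0.71, with overlapping libraries and a signal too low for the re-test.

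The fourth comparison asks how members differed with siSRC4. Of 17 listed members, 9 were higher and 8 lower, so that 52.9% were higher beside 44.6% of all listed genes. The classes split: 6 of 7 USP members were lower, while 4 of 6 RNF members, all 3 TRIM members and FBXO2 were higher, and no E2, MARCHF, KLHL or cullin member was listed. The median log2 ratio was 0.71 for the higher members and -0.85 for the lower ones, beside 0.81 and -0.71 for all listed genes. Libraries did not overlap in 12 of 17 members (70.6%), beside 88.8% of all listed genes. In the re-test 13 of 16 members passed, beside 93.7% of all listed genes, and RNF157, TRIM66 and USP8 did not. With the replicate number as a block, 14 passed, USP8 with an adjusted p of 0.0212. No label states that libraries of the same number were paired. Leaving out 1 library at a time, 8 of the 13 passed every time, RNF128, RNF152, TRIM55 and USP16 did not, and RNF207 fell below the minimum signal without siSRC4 replicate 3 and was not tested there. Under median-ratio scaling 8 higher and 4 lower members passed, against 6 and 7, with RNF157 and TRIM66 gained and RNF152, USP16 and USP25 lost. That scaling centres on the listed genes, of which 55.4% were lower, so it raises the differences here by construction as well.

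Among the deubiquitinases, USP44, known for its part in the mitotic checkpoint, had signals of 3.13, 3.48 and 3.01 with siSRC4 and of 7.25, 7.83 and 7.50 in the control (2.35-fold lower, adjusted p = 0.000378). USP46, a relative of USP12 that also binds UAF1, had 5.06, 4.64 and 4.02 against 9.04, 9.04 and 7.79 (1.89-fold lower, adjusted p = 0.00110). Both were apart in every library. USP25 fell 1.55-fold to 7.03 ± 1.77. USP8, which acts on endosomal receptors, had 16.76, 11.85 and 8.37 against 18.17, 18.14 and 11.81, with overlapping libraries and an adjusted p of 0.159 without the block. USP16 had 16.52, 11.75 and 7.42 against 18.01, 17.84 and 17.14 (1.48-fold lower, adjusted p = 0.0320). In USP8, USP16 and USP25 siSRC4 replicate 1 was the highest and replicate 3 the lowest of the group, the order seen in many genes of this table, and its part in these values was not tested. The USP16 call was lost without siSRC4 replicate 2 or 3 or without any 1 of the 3 control libraries, with an adjusted p of 0.0809 at most.

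Among the ligases, RNF44 had signals of 10.82, 11.91 and 11.46 with siSRC4 and of 7.46, 7.56 and 5.89 in the control (1.64-fold, adjusted p = 0.00247). RNF157, a ligase best known from neurons, had 6.24, 6.48 and 5.08 against 3.78, 4.01 and 5.38, with overlapping libraries (1.35-fold, adjusted p = 0.0501). TRIM66, a bromodomain protein of chromatin, had 2.03, 2.11 and 1.39 against 1.46, 1.67 and 1.07 (1.32-fold, adjusted p = 0.156). In both, siSRC4 replicate 3 fell inside the range of the control libraries.

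**Figure D3:**
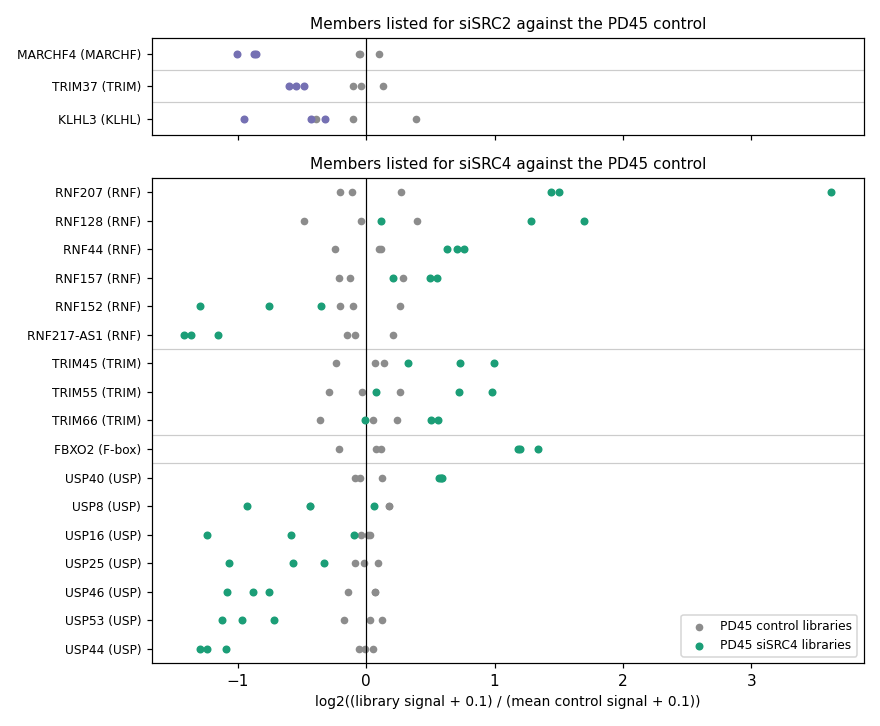
The upper panel shows the 3 members listed for siSRC2 and the lower panel the 17 listed for siSRC4, as log2((library signal + 0.1) / (mean PD45 control signal + 0.1)), with siRNA libraries coloured and control libraries grey. All siSRC2 members lie to the left, siSRC4 members split into 9 right and 8 left, and 1 siSRC4 library of RNF207 stands far from the other 2.

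The 14 members present in more than 1 table are set side by side here. The tables share their control libraries, so agreement between 2 tables against that control is not independent; where both groups had values, they were compared directly with limma, without the control. Among genes present in both tables, 66.4% of 512 differed directly between PD30 and GW8510, 60.4% of 374 between PD30 and siSRC4, 62.9% of 143 between PD30 and siSRC2 and 34.7% of 291 between GW8510 and siSRC4. Of the members tested directly, 1 of 5, 2 of 8, 1 of 1 and 2 of 5 passed in these contrasts. Where 2 groups were listed on opposite sides of the control, the direction of the direct difference was already set by that listing. Direct contrasts with PD30 mix passage with siRNA and, for GW8510, with drug and vehicle. The contrast of GW8510 with siSRC4 mixes drug, siRNA and vehicle. These cannot be told apart. No member was in both the GW8510 and siSRC2 tables or in both siRNA tables.

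USP1 lay on opposite sides of the control: 4.78, 5.55 and 4.63 at PD30, 3.05, 3.06 and 2.70 in the PD45 control, and 1.90, 1.12 and 1.84 with GW8510. The 3 groups did not overlap. Against the control it was 1.70-fold higher at PD30 (adjusted p = 0.00116) and 1.81-fold lower with GW8510 (adjusted p = 0.00401), and PD30 exceeded GW8510 by 3.08-fold directly (log2 difference 1.20 ± 0.15 SE, adjusted p = 3.46e-05). UBE2S, described above, was higher in both groups, at 141 ± 18.6 for PD30 and 129 ± 18.5 for GW8510, and these did not differ past the threshold (log2 difference 0.13 ± 0.13 SE, adjusted p = 0.416). USP1 and UBE2S were thus both higher at PD30 and on opposite sides of the control with GW8510.

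FBXO2 was lower at PD30 and higher with siSRC4, where its signals were 18.30, 20.13 and 18.09 against the control's 8.38, 6.81 and 8.57 (2.38-fold, adjusted p = 0.000267). The siSRC4 mean of 18.8 ± 1.12 exceeded the PD30 mean of 2.60 ± 0.382 by 7.25-fold (log2 difference -2.47 ± 0.13 SE for PD30 minus siSRC4, adjusted p = 3.56e-08). RNF128 (GRAIL), a ligase of T cell anergy, had 0.61, 0.57 and 0.54 at PD30, 0.82, 0.83 and 0.87 with GW8510, 5.62, 4.20 and 1.81 with siSRC4, and 2.22, 1.62 and 1.16 in the control. It was 2.91-fold lower at PD30 (adjusted p = 0.00104) and 1.98-fold lower with GW8510 (adjusted p = 0.00933). With siSRC4 it was 2.33-fold higher (adjusted p = 0.0259), with 1 siSRC4 library inside the control range and calls lost without siSRC4 replicate 1 or 2 or control replicate 2 or 3 (adjusted p of 0.101 at most). Directly, siSRC4 exceeded PD30 by 6.76-fold (adjusted p = 0.000193) and GW8510 by 4.62-fold (adjusted p = 0.00183).

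TRIM55 (MuRF2), a ligase of striated muscle, had signals of 1.39, 1.16 and 0.51 with GW8510, 5.08, 4.23 and 2.67 with siSRC4, and 3.05, 2.46 and 2.05 in the control. It was 2.47-fold lower with GW8510 (adjusted p = 0.00221) and 1.58-fold higher with siSRC4 (adjusted p = 0.0439). The siSRC4 libraries overlapped the control, and that call was lost without siSRC4 replicate 1 or 2 or control replicate 2 or 3 (adjusted p of 0.146 at most). Directly, siSRC4 exceeded GW8510 by 3.92-fold (log2 difference -1.30 ± 0.23 SE for GW8510 minus siSRC4, adjusted p = 0.000722).

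USP53 and RNF152 were lower in 3 tables. USP53 had 6.73, 7.69 and 7.39 at PD30, 9.04, 5.83 and 8.32 with GW8510, 8.20, 6.88 and 6.17 with siSRC4, and 12.01, 14.74 and 13.82 in the control. It was 1.86-fold, 1.75-fold and 1.91-fold lower (adjusted p = 0.000103, 0.00144 and 0.000991), and all 9 libraries lay below all control libraries. None of its direct differences passed, with adjusted p of 0.752 for PD30 and GW8510, 0.836 for PD30 and siSRC4 and 0.736 for GW8510 and siSRC4. RNF152, a lysosomal ligase of the RagA GTPase, had 1.17, 0.74 and 1.61 at PD30, 1.79, 1.21 and 1.10 with GW8510, 1.94, 0.96 and 1.44 with siSRC4, and 3.03, 2.16 and 2.32 in the control. It was 2.13-fold, 1.83-fold and 1.73-fold lower (adjusted p = 0.00300, 0.00605 and 0.0173), and the siSRC4 call was lost without siSRC4 replicate 2 or control replicate 1 (adjusted p of 0.0732 at most). Its direct differences did not pass either, the smallest adjusted p being 0.472.

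USP16 was lower with GW8510 and with siSRC4, as given above, and the 2 groups did not differ past the threshold (10.0 ± 1.68 and 11.9 ± 4.55, adjusted p = 0.647). USP40 was higher at PD30 and with siSRC4, where its signals were 10.43, 10.54 and 10.61 (log2 ratio 0.59, adjusted p = 0.00361), and the direct difference had an adjusted p of 0.309. MARCHF4 was lower at PD30 and with siSRC2. Its siSRC2 mean of 12.5 ± 0.700 lay below the PD30 mean of 15.4 ± 1.22 (1.23-fold, adjusted p = 0.0407). That call was lost without PD30 replicate 1 or 3 or siSRC2 replicate 1 or 2, with an adjusted p of 0.147 at most.

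The remaining shared members had low signals or small differences. RNF207, a cardiac ligase, was higher in 2 groups, with 1.01, 0.71 and 0.60 at PD30, 0.87, 0.91 and 4.29 with siSRC4, and 0.21, 0.23 and 0.33 in the control. Its siSRC4 value passed the re-test (adjusted p = 0.0151) but rested on replicate 3: the log2 ratio was 2.98 with it and 1.79 without it, and 1.70 in the authors' deposited table. RNF217-AS1, an antisense transcript whose reads cannot be told from RNF217's unless counting used strand, had 2.33, 1.97 and 1.22 at PD30, 1.63, 1.39 and 1.34 with siSRC4, and 3.51, 3.37 and 4.35 in the control. It was 2.03-fold and 2.58-fold lower (adjusted p = 0.00201 and 0.000532). TRIM45 had 1.18, 1.21 and 0.95 at PD30, 1.33, 1.09 and 0.80 with siSRC4, and 0.65, 0.69 and 0.51 in the control. It was higher in every library of both groups, and too low for the re-test. TRIM69 had 8.52, 9.09 and 7.36 at PD30, 7.76, 7.67 and 7.79 with GW8510, and 4.77, 7.40 and 6.53 in the control. Its 1.34-fold difference at PD30 had an adjusted p of 0.0383, which reached 0.130 when PD30 replicate 1 or 2 or control replicate 1 was left out.

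**Figure D4:**
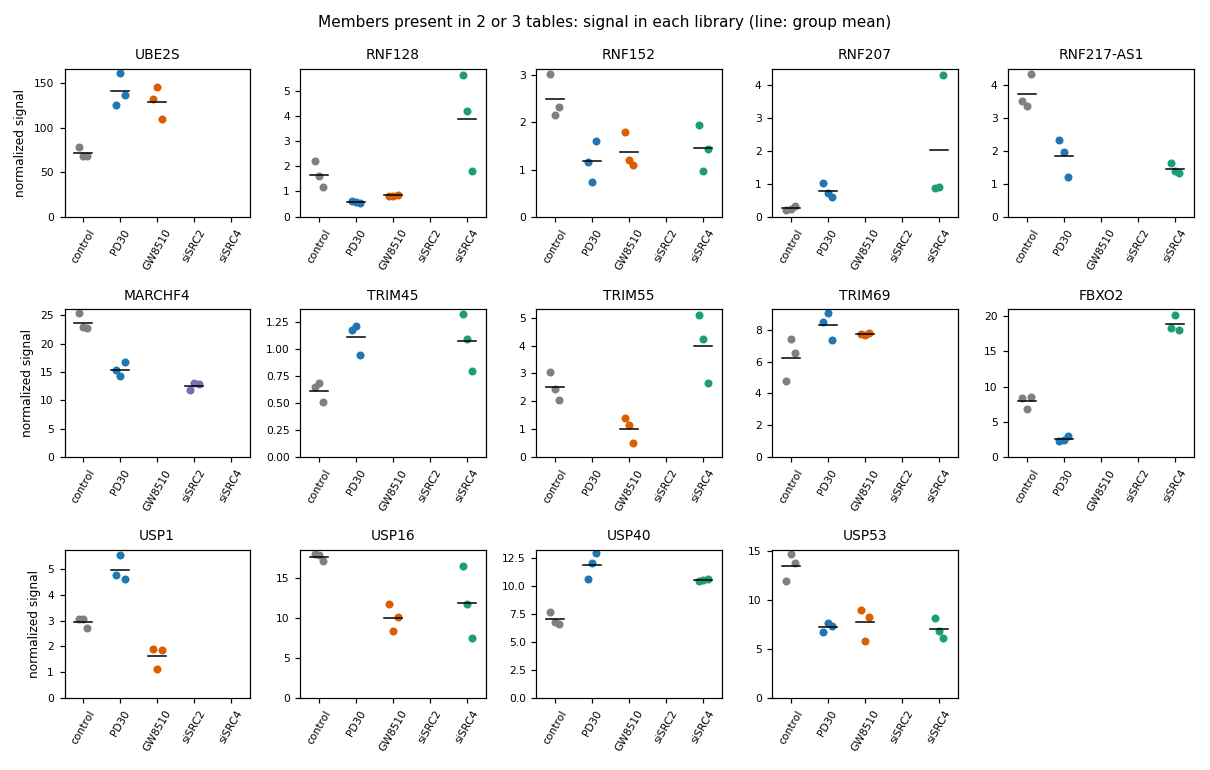
Each panel is 1 of the 14 members present in 2 or 3 tables, with the normalized signal of each library as points and the group mean as a line, and an empty position where the gene is not in that group's table. USP53 and RNF152 lie below the control in 3 groups, and USP1, FBXO2, RNF128 and TRIM55 lie on both sides of it.

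Higher members had a higher GC than lower ones in 2 of the tables. Over the longest GENCODE transcript of each gene, the 8 members higher with GW8510 had a median GC of 57.6% and the 25 lower ones 42.0%, beside 55.1% and 41.6% for all listed genes. For siSRC4 the medians were 51.5% for higher and 39.0% for lower members, beside 55.4% and 41.0%. The 8 lower siSRC4 members ranged from 34.5% to 42.0%, below every higher one, the lowest of which had 42.3%. For PD30 the medians were 44.4% for higher and 49.0% for lower members, beside 49.5% and 47.9% for all listed genes. Lower members also had longer transcripts, with medians of 3996 against 3330 bases for GW8510, 5706.5 against 3924 for siSRC4 and 4419 against 3314 for PD30. For all listed genes the medians were 4685 against 2844 bases, 4022 against 3760 and 3845 against 3225, in the same order. For siSRC2, where no member was higher, all listed genes went the other way. The lower ones had medians of 2698 bases and 51.3% GC, against 5223 bases and 47.5% for the higher ones. The part of composition and length in the results was not tested.

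**Figure D5:**
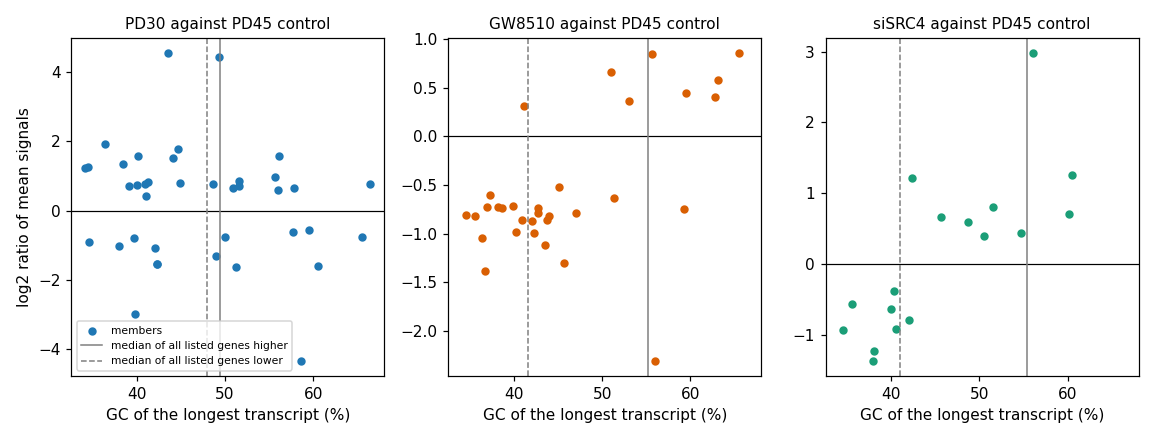
Each point is a member, with the GC of its longest transcript (%) on the horizontal axis and the log2 ratio of mean signals on the vertical axis, for PD30, GW8510 and siSRC4 against the PD45 control. Grey lines give the median GC of all listed genes that were higher (solid) or lower (dashed), and higher members sit towards high GC for GW8510 and siSRC4.

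The other genes of the pathway were taken from 245 symbols in 7 lists and are counted by the authors' call, with no test. A list of HECT and RING-between-RING ligases held 34 genes. Of these, 3 were listed for PD30, all lower, 5 for GW8510, 4 of them lower, and 2 for siSRC4, both lower. SHPRH, among the 4 lower with GW8510, is a RING ligase of neither type. RNF19A and RNF144B are counted with the RNF class and not here. Of all listed genes, 46.2% were lower at PD30, 61.2% with GW8510, 47.7% with siSRC2 and 55.4% with siSRC4, and 15.3%, 11.8%, 2.64% and 8.77% of the tested genes were listed, and nothing particular to a list is read from its counts. SMURF2, a ligase of the TGF-beta pathway, was in all 3 tables, at 150 ± 13.1 in the control, 76.5 ± 5.09 at PD30, 84.9 ± 7.72 with GW8510 and 93.5 ± 7.55 with siSRC4. Of 82 other ligases and adaptors, 9 were higher and 5 lower at PD30, 4 and 7 with GW8510, 1 and 0 with siSRC2, and 1 and 2 with siSRC4. Those higher at PD30 included DTL, the adaptor of the replication-coupled cullin ligase (5.84-fold), BRCA1 (3.23-fold) and UHRF1 (2.84-fold). CCNF, an F-box protein named outside the rule, was 2.46-fold higher there. NEURL1B (4.97-fold), SOCS3 (2.84-fold), PELI2 (2.74-fold) and KBTBD6 (1.57-fold) were also higher at PD30. SKP2, the F-box protein that degrades cell cycle inhibitors, was 1.55-fold higher at PD30 and 2.03-fold lower with siSRC4.

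Among the 17 genes of the anaphase-promoting complex, CDC20, its mitotic activator, was 13.3-fold higher at PD30 and 2.34-fold higher with GW8510, and ANAPC13 was 1.59-fold lower at PD30. The 20 neddylation genes, which switch cullin ligases on and off, had no listed gene for PD30, 2 lower for GW8510, 1 higher for siSRC2, and 2 higher and 4 lower for siSRC4. COPS4, a subunit of the signalosome that removes NEDD8, was 2.19-fold lower with siSRC4, and UBA3, part of the NEDD8 E1, was 1.64-fold lower. A list of deubiquitinases of other families held 36 genes, some of them, such as PAN2 and EIF3F, best known for other roles. Of these genes, 3 were higher and 4 lower at PD30, 3 and 3 with GW8510, and 2 and 4 with siSRC4. PAN2 was among those higher at PD30 and EIF3F among those higher with GW8510. STAMBPL1, a zinc-dependent deubiquitinase, was 1.91-fold higher at PD30, 1.35-fold higher with GW8510 and 1.70-fold lower with siSRC4. Of 50 proteasome genes, PSMB9, the immunoproteasome subunit, was higher at PD30 (1.76-fold), PSMG4, an assembly chaperone, was higher with GW8510 (1.41-fold), and PSMA3, PSMA4 and PSMB9 were lower with siSRC4. Of the 7 ubiquitin and E1 genes, UBA7, the E1 of ISG15, was 1.73-fold lower with GW8510 and RPS27A, a ubiquitin-ribosomal fusion gene, was 1.75-fold lower with siSRC4.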

How the data were processed

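Total RNA of 15 WI-38 libraries was sequenced. Per the submitters' processing notes, the authors' tools included DESeq2 and edgeR, HISAT2, CASAVA, RSEM and StringTie (roles and versions not given in the sources used here) and the build was GRCm38, a mouse assembly, while the tables carry human Ensembl identifiers; no coordinates are therefore taken from the authors' files, and those of the promoter windows are RefSeq's. Per the file headers, each of the 4 deposited tables holds the authors' fold ratio, log2 fold change, p-value and adjusted p-value, and a normalized signal for 6 libraries. The deposited signal keeps no read depth, so no counting interval is given. Columns were matched by library name: the table with a mean column titled siSRC2 holds libraries named siSRC4, and the one titled siSRC holds siSRC2. For genes in several tables, the control values matched exactly.

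Group means with their SD (n = 3) and mean-signal ratios came from Python 3.11.15 with pandas 2.3.3. The listed genes were re-tested with limma 3.58.1 (R 4.3.3) with a mean-variance trend on log2(signal + 1), which understates the change of low genes, where the signal averaged at least 1 over the 6 libraries. Benjamini-Hochberg adjustment ran over all listed genes of the table, or over all genes in both tables for a direct contrast, and the code was tested on simulated data. Adjusted p below 0.05 in the authors' direction counts as passing. The members and lists were chosen with earlier results of these data known. Members named with all library values were, in each table and class, up to 3 a direction with the largest log2 ratio among those whose higher group mean was at least 5 (at least 1 where a class had none), every member of several tables and every siSRC2 member. The library values of TRIM58, TRIM29, FBXO43, KLHL23 and USP8 fall outside that rule and were chosen after their values were seen. The values of 1 GW8510 member are not reported here, though it is in the counts.

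Replicate numbers come from the sample titles. Libraries of siSRC4 and the control with the same number deviated together (correlations of 0.12, 0.11 and 0.14 over 1170 genes). For siSRC2 the correlations were 0.089, 0.088 and 0.218 over 310 genes. Differently numbered siSRC2 and control libraries ranged from -0.135 to 0.072. Same-numbered libraries had correlations of 0.010, -0.032 and -0.112 for PD30 and of 0.107, 0.024 and 0.040 for GW8510. No label states a pairing. In both siSRC4 and the control, replicate 1 was most often the highest (54.2% and 50.6%) and replicate 3 the lowest (57.5% and 53.5%). Paired cultures and shifts of whole libraries cannot be told apart, so the block is given as an alternative only. Alternatives were a pseudocount of 0.1, no filter or a minimum mean of 5, median-ratio scaling, a fold of at least 2, a replicate block and leaving out each library. Promoter windows are from RefSeq (GRCh38.p14), and transcript GC and length from the longest GENCODE transcript.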

Additional observations from a re-analysis of the deposited data

How the results depend on the processing

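No member changed sign in the authors' own fold changes (92 values) or when any 1 library was left out (551 values), though 17 and 28 of these moved by more than the spread between replicates. Of the PD30 members, 16 passed with a minimum mean signal of 5 and 13 with a fold of at least 2, against 31; fewer genes enter or qualify by construction. For GW8510 the counts were 16 and 4, against 30, and 9 with median-ratio scaling. For siSRC4 they were 8 and 5, against 13, and for siSRC2 a fold of at least 2 left 0 of 2. In the direct contrast of PD30 with GW8510, 2 members passed without a filter, against 1, the added one being RNF128 (adjusted p = 0.0188). Without 1 library, the members passing ranged from 28 to 31 for PD30, 27 to 30 for GW8510 and 9 to 13 for siSRC4, and from 0 to 1 for PD30 against siSRC2 directly.

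Median-ratio scaling centres each library on the listed genes, all of which the authors had called as changed. It removes an offset between group and control of 0.38 (PD30), -0.55 (GW8510), 0.14 (siSRC2) and -0.28 (siSRC4) on the log2 scale. The balance of higher and lower calls and a difference in scale cannot be told apart in that offset. Scaling lowers the differences where the offset is positive and raises them where it is negative. At PD30 it left 13 higher and 13 lower members passing, against 18 and 13, without FBXO4, TRIM16L, TRIM65, TRIM69 and USP18. TRIM52 in GW8510 was the one tested member whose direction it changed. With the replicate block, 31, 30 and 2 members passed for PD30, GW8510 and siSRC2, and 14 for siSRC4. No label states a pairing. In the direct contrasts 1, 2, 1 and 2 passed, as without the block. FBXL16 at PD30 had an adjusted p of 0.0542 with a pseudocount of 0.1, and RNF157 with siSRC4 one of 0.0499. Unknown read depth limits what low-signal members such as FBXO43, TRIM29 and KLHL38 can show.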
